A study of Mus musculus with 2 samples.

Results

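The Dlk1-Meg3 imprinted locus was examined in single cells of mouse gastruloids through 5 of its genes, out of the 32285 genes listed in the deposited count tables. They were taken by symbol, and each symbol occurred once: Meg3, Rian and Mirg, which give noncoding RNAs, and Dlk1 and Rtl1, which code for proteins. Gastruloids are clumps of embryonic stem cells that lay down a first body axis in a dish. The cells were of the mouse line R1, either wild type or Sp5/8 double knockout, with about 300 per aggregate in serum-free N2B27 medium. At day 2 both groups received 3 µM CHIR, which blocks GSK3 and so switches on Wnt signalling. Aggregates were pooled 12 h later, at day 2.5, and each genotype has 1 library. Whether the knockout line was 1 clone was not given in the sources used here. With 1 library per group no difference between them can be tested, and all intervals are 95% intervals of counting error.

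Imprinted genes are expressed from only 1 of the parental copies. At this locus Meg3, Rian and Mirg are expressed from the maternal chromosome, and Dlk1 and Rtl1 from the paternal one. A methylated control region upstream of Meg3 on the paternal copy keeps the maternal RNAs silent there. Loss of imprint on the maternal copy silences the maternal RNAs, a state well known in cultured mouse pluripotent stem cells. Meg3 is a nuclear long noncoding RNA, Rian is the host of small nucleolar RNAs and microRNAs, and Mirg is the host of a large microRNA cluster. Dlk1 is a membrane protein related to the Notch ligands, and Rtl1 is a protein derived from a retrotransposon that is needed in the placenta.

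All 5 genes lie on chromosome 12 of GRCm38 (GENCODE M21), the build that the submitters name as mm10. Dlk1 comes first, at 109452823 to 109463336 on the plus strand, followed by Meg3 at 109541001 to 109571726. Rtl1 is on the minus strand at 109589193 to 109600330. Rian follows on the plus strand at 109603940 to 109661716, with 13 snoRNA and 4 microRNA genes annotated inside it. Mirg ends the series at 109729764 to 109749460, with 15 microRNA genes inside it. No other gene of the count tables overlapped any of the 5.

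Promoter windows of Meg3, Rian and Dlk1 are shown because Rian was found more often in cells with Meg3 than in cells without it. Windows run from 250 bases before to 50 bases after the annotated start (RefSeq, GRCm38.p6), and capitals mark the motifs searched. These were the GC box GGGCGG, bound by Sp and Klf factors, the cyclic AMP element TGACGTCA and the motif TGCCGC of ZFP57, a protein that protects imprints. Both strands were searched, and no motif overlapped another.
Meg3, chr12:109540746-109541045, plus strand: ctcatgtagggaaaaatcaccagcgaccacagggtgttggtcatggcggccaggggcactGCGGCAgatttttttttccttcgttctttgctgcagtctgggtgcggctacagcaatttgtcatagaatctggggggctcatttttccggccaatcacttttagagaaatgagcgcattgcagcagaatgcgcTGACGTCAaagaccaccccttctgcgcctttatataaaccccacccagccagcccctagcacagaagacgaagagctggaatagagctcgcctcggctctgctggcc
Rian, chr12:109603695-109603994, plus strand: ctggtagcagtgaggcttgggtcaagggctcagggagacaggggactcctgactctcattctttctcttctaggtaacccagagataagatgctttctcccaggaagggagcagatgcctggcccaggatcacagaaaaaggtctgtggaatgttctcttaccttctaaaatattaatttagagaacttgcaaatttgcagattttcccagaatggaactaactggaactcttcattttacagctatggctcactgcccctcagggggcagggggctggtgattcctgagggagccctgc
Dlk1, chr12:109452573-109452872, plus strand: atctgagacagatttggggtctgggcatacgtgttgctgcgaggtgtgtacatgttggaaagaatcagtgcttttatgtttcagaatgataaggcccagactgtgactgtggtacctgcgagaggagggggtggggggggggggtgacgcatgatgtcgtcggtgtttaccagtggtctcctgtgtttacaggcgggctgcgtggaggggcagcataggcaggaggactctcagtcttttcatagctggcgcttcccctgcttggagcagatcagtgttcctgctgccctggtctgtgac
The Meg3 window shown held 1 TGACGTCA, 57 bases before the start, and 1 ZFP57 motif on the opposite strand, which reads GCGGCA here, 190 bases before it. Among 32851 mouse windows of this length, 1.79% held TGACGTCA and 11.6% the ZFP57 motif. No GC box was found in it, against 35.7% of all windows. The windows of Rian and Dlk1 held none of the 3 motifs. The same was true of a second Meg3 window (chr12:109545148-109545447) and of the Mirg window, which are not shown. CpG pairs numbered 13 in the Meg3 window shown, 9 in that of Dlk1 and 0 in that of Rian. The second Meg3 window had 1 and the Mirg window 10. A match of letters is a description of the window and says nothing of binding.

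A barcode counted as a cell if it had at least 2500 UMIs, at least 1000 genes and at most 10% mitochondrial UMIs, a UMI being a tag that marks 1 molecule. This gave 8707 cells (97157331 UMIs) labelled wild type and 10587 cells with 97644169 UMIs in the library labelled double knockout. The median cell had 10571 and 8637 UMIs, respectively. The libraries shared 27 cell barcodes. Sp5, a target of the knockout by the labels, was 4.39-fold above the other library in that labelled double knockout (479 CPM against 109, where CPM are a gene's UMIs scaled to the total of its library), and Sp8 was 1.93-fold higher. Directions below are therefore between libraries as labelled and cannot be read as an effect of losing Sp5 or Sp8. The median genes per cell, 3275 and 2884, were below the 5333 and 5398 stated in the labels.

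Meg3 was the most abundant RNA of the locus by UMIs in both libraries, and its ratio between them had the narrowest interval of the 5 genes. It had 49430 UMIs, or 509 CPM (504 to 513), in the library labelled wild type. The other library held 60268 Meg3 UMIs, or 617 CPM (612 to 622). The log2 ratio, always with the library labelled double knockout as numerator, was 0.28 (0.26 to 0.30), or 1.21-fold. This ratio lay at percentile 95.5 of the 12406 genes with a mean of at least 1 CPM, whose median was -0.03. Free RNA, taken from barcodes with at most 100 UMIs, held 351 and 449 CPM of Meg3, in the same order as the cells.

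Rian did not follow Meg3. Its level was 141 CPM (139 to 144) in cells labelled wild type and 137 CPM (135 to 140) in cells labelled double knockout, a log2 ratio of -0.04 (-0.07 to -0.005). Mirg stood at 20.5 CPM (19.6 to 21.4) and 22.2 CPM (21.3 to 23.2), a log2 ratio of 0.12 (0.03 to 0.21). The level of Rian relative to Meg3 thus differed: 27.8 Rian UMIs per 100 Meg3 UMIs (27.2 to 28.3) were counted in the cells labelled wild type and 22.3 (21.9 to 22.7) in those labelled double knockout. Free RNA gave 31.2 (28.4 to 34.3) and 24.2 (21.6 to 27.0). UMI counts at the 3′ end are not given per transcript length, so no order of molecules between genes is drawn from them.

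Dlk1 and Rtl1, the protein-coding members, had few UMIs. Dlk1 had 180 and 168 UMIs in the libraries labelled wild type and double knockout, or 1.85 CPM (1.59 to 2.14) and 1.72 CPM (1.47 to 2.00). Its log2 ratio was -0.11 (-0.42 to 0.20), an interval that includes no difference. Within cluster 1, from 68 and 26 UMIs, the Dlk1 ratio was -0.70 (-1.42 to -0.04), and its intervals included 0 in clusters 0 and 2 to 6. Rtl1 had 35 and 52 UMIs, or 0.36 CPM (0.25 to 0.50) and 0.53 CPM (0.40 to 0.70), and its ratio of 0.56 had an interval from -0.08 to 1.23. Free RNA held 1.33 CPM of Rtl1 (7 UMIs) and 1.62 CPM (6 UMIs), which is no lower than the cells, so its level in cells cannot be told from background. For Dlk1 the free RNA held 2 and 4 UMIs.

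None of the 4 members with a mean of at least 1 CPM was 1.5-fold or more apart between the libraries, and Rtl1 lay below that level. Over all tested genes 1.39% were that far apart. An annotated RNA between Rian and Mirg, B830012L14Rik, was added after its values were seen. It stood at 24.5 CPM (23.6 to 25.5) and 26.5 CPM (25.4 to 27.5), a log2 ratio of 0.11 (0.03 to 0.19). Of the 10 protein-coding neighbours within 1 Mb, 7 reached 1 CPM. Their log2 ratios ran from -0.08 to 0.20, and none was 1.5-fold apart. Yy1, a zinc finger factor, had a ratio of -0.08 (-0.13 to -0.04), and Ppp2r5c, a phosphatase subunit, of -0.06 (-0.11 to -0.01). Wars, a tRNA synthetase, had 0.08 (0.01 to 0.14), and Evl, an actin regulator, -0.01 (-0.09 to 0.06). Dio3, the imprinted gene at the far end of the domain, had 16 UMIs in each library.

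**Figure D1:**
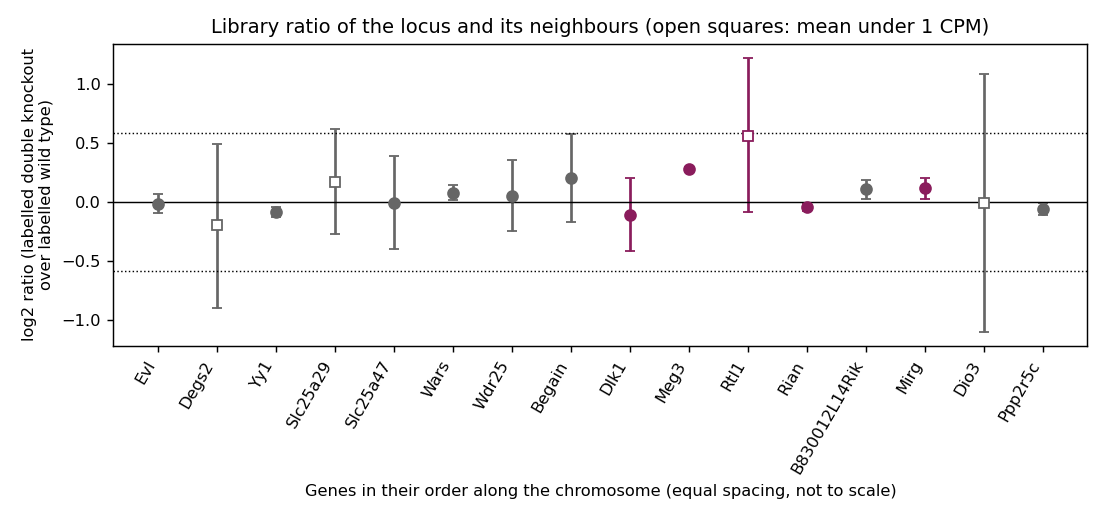
Log2 ratio (y axis, double knockout over wild type as labelled) for the 5 genes (purple), B830012L14Rik and 10 protein-coding neighbours (grey), in chromosome order. Bars are 95% exact intervals of counting error, dotted lines mark 1.5-fold, and open squares are genes under 1 CPM; the interval of Meg3 at 0.28 is narrow and lies above those of Rian and Mirg.

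Meg3 UMIs were found in most cells. Thinning each cell to 4000 UMIs, which left out 258 and 358 shallower cells, put Meg3 in 76.6% (75.7 to 77.5) of cells labelled wild type. For cells labelled double knockout the share was 81.8% (81.1 to 82.6). Unthinned shares were 88.6% and 90.7%. Rian was found in 39.3% and 39.1% of thinned cells, Mirg in 7.62% and 7.98%, Dlk1 in 0.817% and 0.811% and Rtl1 in 0.213% and 0.186%. Without thinning these were 68.0% and 62.1% for Rian, 18.95% and 17.2% for Mirg, 2.01% and 1.52% for Dlk1, and 0.39% and 0.48% for Rtl1. No cell type known to lack Meg3 was available as a background; in cluster 4, the cells with the least of it, 8.59% of 128 and 7.06% of 85 cells thinned to the same 4000 UMIs had one. The median depth of all 326 and 355 cells of that cluster was 3675 and 3226 UMIs.

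The maternal RNAs were unevenly spread over cells. Cells were called off if the thinned cell had 0 UMIs of Meg3, Rian and Mirg together, and on if it had 2 or more. At 4000 UMIs per cell the library labelled wild type had 63.5% on cells and 16.5% off cells (15.7 to 17.3), the other library 69.5% and 12.9% (12.2 to 13.5). The mean sum was 2.62 and 3.04 UMIs per cell, and its variance was 1.93 and 2.12 times the mean. Meg3 alone had a variance 1.76 and 1.95 times its mean, rank 53 and rank 30 of 7607 genes with at least 10 CPM, whose median gene had 1.02. Meg3 ranked 266 and 215 by mean, and this ratio can climb with the mean. At this depth a cell can be off by sampling alone, so the same count was made in deeper cells.

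In the 7087 and 6345 cells with at least 8000 UMIs, thinned to that number, off cells were 6.28% (5.73 to 6.87) and 3.26% (2.84 to 3.73). The library labelled wild type had nearly as many cells with 0 UMIs as with 1: 445 had 0, 465 had 1, 677 had 2 and 877 had 3. In the library labelled double knockout the counts climbed from the start, with 207, 313, 514 and 645 cells. Thinned to 15000 UMIs, 30 of 1233 cells (2.43%, 1.65 to 3.46) labelled wild type had no maternal UMI, 17 had 1 and 1186 were on. Only 3 of 669 cells (0.448%, 0.0926 to 1.30) labelled double knockout were off at that depth, where doublet calls made up 63.8% of its on cells and 34.9% of those labelled wild type. The interval of cells with 1 UMI labelled wild type, 0.805% to 2.20%, overlapped that of off cells.

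The share of empty cells differed between groups of cells. Joint clustering, made without the members, gave 10 clusters, which are called here by number and leading genes. Cluster 2, led by Nfib and Cdx2, had 140 off cells of 1159 labelled wild type at 8000 UMIs, or 12.1% (10.3 to 14.1). Next to them stood only 48 cells with 1 UMI and 62 with 2, while cells with any maternal UMI had a median of 6. Without doublet calls the counts were 134 with 0 and 43 with 1 of 1074 cells. Cluster 3, led by Foxa2, showed the same shape with 27 cells at 0, 16 at 1 and 15 at 2 of 280. Clusters 0 and 1 did not: cluster 0, led by Usp26 and Fgf8, had 138 cells at 0, 220 at 1 and 358 at 2, and cluster 1, led by Irx3, had 100, 135 and 193.

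The same clusters in the library labelled double knockout held fewer off cells. Cluster 2 had 11 of 238, or 4.62% (2.33 to 8.12), and cluster 3 had 10 of 741, or 1.35% (0.649 to 2.47). In cluster 2 these 11 cells stood next to 7 with 1 UMI and 9 with 2, so fewer cells were at 1 than at 0 here as well, from small counts. In cluster 3 the counts climbed, with 14 cells at 1 and 40 at 2. Cluster 0 had 3.26% (2.69 to 3.91) against 5.36% (4.52 to 6.30) in the library labelled wild type. For cluster 1 the shares were 2.15% (1.499 to 2.97) and 3.64% (2.97 to 4.41). The intervals did not overlap in clusters 0, 2 and 3, and they met at their ends in cluster 1.

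**Figure D2:**
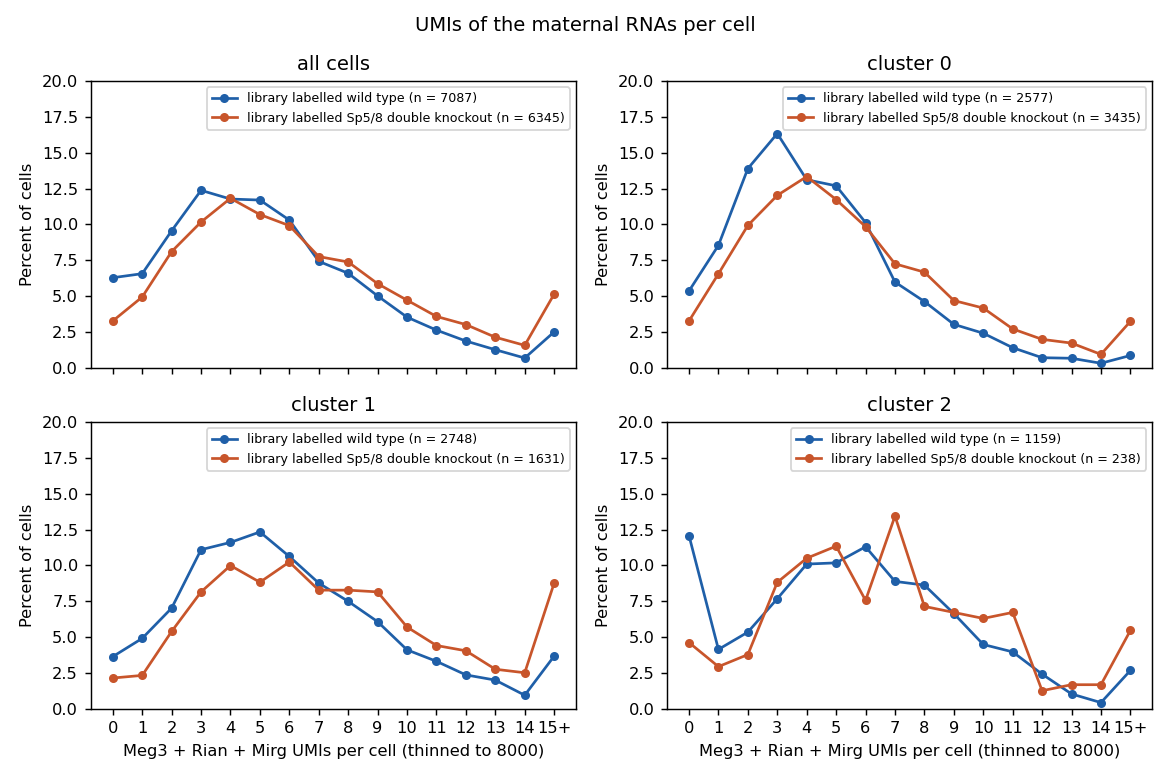
Percent of cells (y axis) by the summed UMIs of Meg3, Rian and Mirg (x axis, last bin 15 or more) in cells thinned to 8000 UMIs, for all cells and clusters 0, 1 and 2. Blue is the library labelled wild type and orange the library labelled double knockout; in cluster 2 the blue line has 12.1% of cells at 0, far above the 4.14% at 1 UMI.

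Off cells labelled wild type were more often low in RNA from chromosome 11 than on cells. A cell was called low if its share of UMIs from a chromosome was at most 0.8 times the median of all cells. Among cells thinned to 8000 UMIs, 31.7% of off cells (27.4 to 36.2) and 14.5% of on cells (13.7 to 15.4) were low for chromosome 11 in the library labelled wild type. Cells labelled double knockout had shares of 7.25% (4.11 to 11.7) and 3.74% (3.27 to 4.26), with overlapping intervals. At 4000 UMIs the gap was smaller, with 21.8% (19.6 to 24.03) of off and 18.5% (17.4 to 19.5) of on cells labelled wild type, and 7.28% (5.94 to 8.82) and 5.67% (5.14 to 6.23) of those labelled double knockout. Cluster 2 and this low state were nearly the same cells: 91.6% and 92.0% of cluster 2 cells were low for chromosome 11. For chromosome 6 the shares of cluster 2 cells were 77.7% and 44.1%. Cells low for both chromosomes 6 and 11 were off in 13.5% of 886 cells labelled wild type (11.4 to 15.98), against 4.79% (4.24 to 5.39) of cells low for neither. With chromosome 11 alone low the share was 10.3% (6.52 to 15.4), and with chromosome 6 alone it was 7.80% (5.71 to 10.4).

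Cells low only for chromosome 6 went the other way in the library labelled double knockout, where 1.75% (1.04 to 2.75) were off, against 3.43% (2.94 to 3.96) of cells low for neither. The mean level of Meg3 in cells low for chromosome 11 was 524 CPM at this depth, against 490 CPM in cells low for neither, in the library labelled wild type. So the cells low for chromosome 11 held more off cells and yet had no lower mean. Cells low only for chromosome 6 had 681 CPM in the same library. In the library labelled double knockout they had 844 CPM, against 602 CPM in cells low for neither. The part of the chromosome state in the off cells was not tested.

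**Figure D3:**
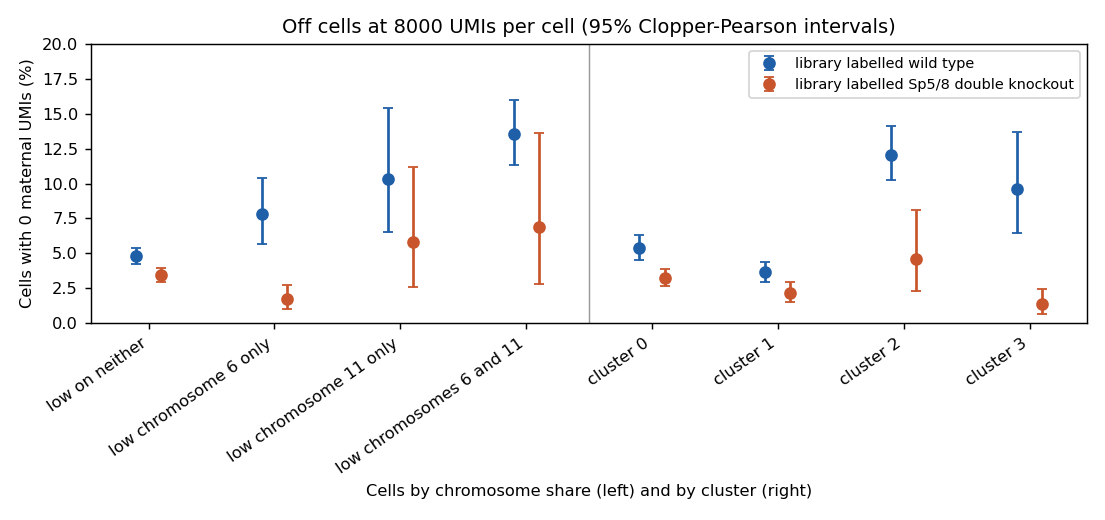
Percent of cells with 0 UMIs of Meg3, Rian and Mirg after thinning to 8000 UMIs (y axis), by chromosome state (left) and in the 4 largest clusters (right), with 95% Clopper-Pearson intervals. Among the groups drawn, which leave out cells low for chromosome 12, the library labelled wild type (blue) is highest in cells low for chromosomes 6 and 11 at 13.5%. It has 12.1% in cluster 2.

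RNA from chromosome 12 itself was low in a small part of the off cells. At 8000 UMIs, 16 of 445 off cells labelled wild type, or 3.6% (2.07 to 5.77), were low for chromosome 12, against 13 of 6177 on cells, or 0.210% (0.112 to 0.360). Among cells labelled double knockout it was 3 of 207, or 1.45% (0.300 to 4.18), against 11 of 5825, or 0.189% (0.094 to 0.338). The few cells low for chromosome 12 were often off. They were off in 16 of 36 cells (44.4%, 27.9 to 61.9) labelled wild type and 3 of 16 (18.75%, 4.05 to 45.6) labelled double knockout. The median off cell had a chromosome 12 share close to the median of all cells. Most off cells were therefore not low for the whole chromosome.

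Rian was found more often in cells with Meg3 than in cells without it, in both libraries. Of thinned cells with a Meg3 UMI, 43.1% (41.9 to 44.3) had Rian in the library labelled wild type, against 26.9% (24.95 to 28.9) of cells without Meg3. The library labelled double knockout gave 42.0% (41.0 to 43.1) and 25.9% (23.96 to 28.0). At 8000 UMIs the gap was wider, with 64.8% against 28.5% and 63.2% against 28.7%. Over cells at 4000 UMIs the correlation of Meg3 and Rian counts was 0.22 and 0.24 (n = 8449 and 10229 cells that share a library), which describes sparse counts and is no test.

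Mirg and B830012L14Rik followed Meg3 as well. Mirg was in 8.61% (7.94 to 9.32) of Meg3-positive and 4.40% (3.54 to 5.40) of Meg3-negative cells labelled wild type, and in 8.67% and 4.84% of those labelled double knockout. For B830012L14Rik the shares were 10.4% and 4.90% in the library labelled wild type and 10.2% and 5.33% in the other. The number of Rian UMIs per cell climbed with that of Meg3. It was 0.34, 0.48, 0.55, 0.70 and 1.04 per cell at 0, 1, 2, 3 to 5 and 6 or more Meg3 UMIs in cells labelled wild type, and 0.32, 0.45, 0.50, 0.63 and 1.03 in the library labelled double knockout.

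**Figure D4:**
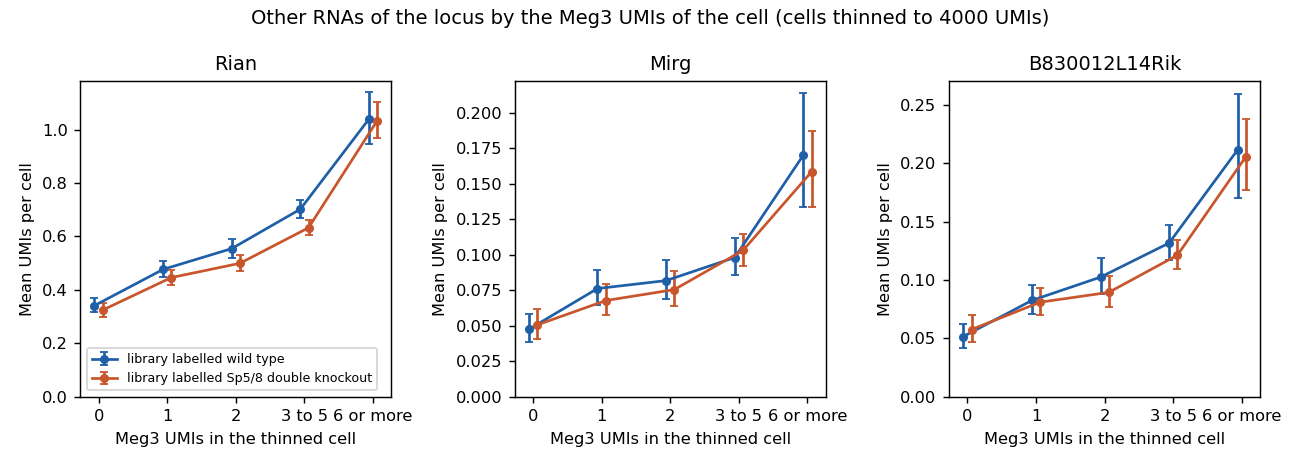
Mean UMIs per cell (y axes) of Rian, Mirg and B830012L14Rik by the number of Meg3 UMIs in the cell (x axes), in cells thinned to 4000 UMIs, with 95% Poisson intervals. Each RNA is lowest in cells without Meg3, and Rian goes from 0.34 to 1.04 in the library labelled wild type (blue) and from 0.32 to 1.03 in the library labelled double knockout (orange).

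Dlk1, from the paternal chromosome, did not differ between cells with and without Meg3 beyond the counting intervals, which are wide. It was in 0.819% (0.614 to 1.07) of Meg3-positive and 0.809% (0.463 to 1.31) of Meg3-negative cells labelled wild type. Shares of 0.860% (0.674 to 1.08) and 0.592% (0.296 to 1.06) were found in the library labelled double knockout. Between on and off cells the shares were 0.745% (0.533 to 1.01) and 0.934% (0.498 to 1.59) in the first library and 0.886% (0.682 to 1.13) and 0.531% (0.214 to 1.09) in the second. All of these pairs have overlapping intervals. Rtl1 was seen in 15 of 5368 on cells and 16 of 7108 on cells, and in 0 of 1392 and 0 of 1318 off cells, which allows shares of up to 0.216% and 0.228%. The on cells had 0.279% (0.157 to 0.461) and 0.225% (0.129 to 0.365), above the first limit and under the second, and both intervals reach below the limits. At 8000 UMIs Rtl1 was in 18 of 6177 and 32 of 5825 on cells and in 0 of 445 and 0 of 207 off cells, which allows up to 0.674% and 1.45%.

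Few other genes separated off from on cells by 1.5-fold or more in both libraries. Over 7604 genes with at least 10 CPM, members left out, 4 were 1.5-fold or more higher in off cells in both libraries (0.0526% of genes) and 1 was lower in both (0.0132%). The lower gene was B830012L14Rik of the same locus, at 9.34 against 29.9 CPM (log2 ratio -1.67) in cells labelled wild type and at 13.5 against 29.8 CPM (-1.14) in cells labelled double knockout. Fabp3, a fatty acid binding protein, had 70.8 against 32.1 CPM and 61.5 against 29.9 CPM, log2 ratios of 1.14 and 1.04. The others were Col4a2, a basement membrane collagen (0.80 and 0.84), Zfp42, a marker of naive pluripotent cells (0.65 and 0.93), and Sparc, a matrix protein (0.64 and 0.76). Krt8, a keratin, was next at 0.84 and 0.54. Zfp42 does not stand for naive markers as a set, a list with 4 genes of at least 10 CPM. Their off over on ratios split into 2 above and 2 below 0 among cells labelled wild type. For cells labelled double knockout the split was 3 and 1, and only 1 gene of the list passed 1.5-fold in each library. At 8000 UMIs 12 genes were higher in both libraries (0.158%) and 5 were lower (0.0658%), with 3 of the 4 higher genes among the 12 and B830012L14Rik among the 5. With another seed of the thinning only 1 gene was higher and 3 were lower, B830012L14Rik being among the 3.

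Clusters 6 and 9 gave a larger share of the UMIs of Fabp3, Col4a2, Zfp42 and Sparc than of the cells. Clusters 6 and 9 held 4.60% and 5.31% of off cells in the libraries labelled wild type and double knockout. The same clusters gave 64.5% and 58.6% of the Fabp3 UMIs of off cells, 54.2% and 41.6% of those of Col4a2, 54.1% and 46.0% of those of Zfp42 and 49.9% and 56.6% of those of Sparc. On cells of clusters 6 and 9 were 1.58% and 1.69% of all on cells and gave 16.3% and 15.4% of their Fabp3 UMIs. Within cluster 0 the Fabp3 log2 ratio of off over on cells was 0.05 (-0.47 to 0.53) and 0.10 (-0.29 to 0.45). Within cluster 1 it was 0.18 (-0.33 to 0.63) and -0.07 (-0.87 to 0.58). Within cluster 6 the ratio was 0.84 (0.0012 to 1.71) and 1.58 (0.57 to 2.68), from 54 and 59 off cells. Zfp42 UMIs were likewise higher in off cells of cluster 6, with 0.48 (0.01 to 0.94) and 1.47 (0.93 to 2.03). Single cells weigh on these sums: 12 of the 22 Fabp3 UMIs of off cells labelled double knockout were in 1 cell. Fabp3 was in 31.5% of off and 18.75% of on cells of cluster 6 labelled wild type, and in 15.3% and 11.4% of those labelled double knockout. For Zfp42 the shares were 44.4% and 43.75%, and 35.6% and 27.2%. All 4 pairs of shares have overlapping intervals. B830012L14Rik, in contrast, was lower in off cells inside cluster 0 in both libraries, with -1.18 (-1.94 to -0.55) and -1.01 (-1.52 to -0.57). Inside cluster 1 it was -1.39 (-2.26 to -0.71) and -0.39 (-1.13 to 0.23). Malat1, from chromosome 19, was also lower in off cells inside clusters 0 (-0.31 and -0.28), 1 (-0.23 and -0.20) and 5 (-0.63 and -0.33). All of these Malat1 intervals lay below 0. In cluster 2 it had -0.04 (-0.09 to 0.02) and -0.38 (-0.50 to -0.25), and in cluster 6 both intervals included 0.

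The lowest genes in off cells by the mean of both libraries, predicted genes left out, were Ank2 (-0.50 and -0.71), Tmc7 (-0.57 and -0.55), Crtc3 (-0.51 and -0.61), Itga1 (-0.43 and -0.63) and Aspm (-0.43 and -0.63). Ank2 is a membrane adaptor, Itga1 an integrin subunit and Aspm a spindle protein. None was 1.5-fold lower in both libraries. Off cells had fewer UMIs before thinning than on cells, with medians of 9830.5 against 10963.5 and 8115.5 against 8984. The part of depth in these small differences was not tested. The genes whose counts correlated most with the maternal RNAs over cells were Malat1, mt-Co1, mt-Co3, B830012L14Rik and mt-Nd1, with r from 0.22 down to 0.11, over 8449 and 10229 cells. Malat1 is a nuclear noncoding RNA, and the mt genes are of the mitochondrial genome.

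The level of Meg3 differed between clusters. Most cells of cluster 2 were low for chromosome 11, so the kind of cell and the chromosome state cannot be told apart there. Of the 7 largest clusters, 0 to 6, cluster 4 is described separately. In cells labelled wild type the level ran from 609 CPM (584 to 635) in cluster 3 and 587 CPM (580 to 595) in cluster 1 through 528 CPM (517 to 540) in cluster 2. Clusters 5, 0 and 6 followed with 429 CPM (404 to 455), 428 CPM (421 to 436) and 416 CPM (387 to 446), and these 3 do not differ beyond their intervals. In the library labelled double knockout clusters 3 and 1 were again first, at 762 CPM (745 to 778) and 755 CPM (744 to 766), with overlapping intervals. Then came cluster 2 with 582 CPM (560 to 604), cluster 0 with 553 CPM (547 to 560), cluster 5 with 502 CPM (473 to 533) and cluster 6 with 485 CPM (455 to 516). Cluster 5 was led by the neural genes Nhlh1 and Isl1, and cluster 6 by Rhox9, Rhox6, Dppa3 and Esrrb, genes of early pluripotent cells. The small cluster 8, of 47 and 31 cells, had more Meg3 than any of these, at 787 CPM (680 to 907) and 990 CPM (841 to 1157).

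Cluster 4 stood apart with 21.7 CPM (14.4 to 31.4) and 23.2 CPM (15.6 to 33.3) of Meg3. Its Rian level was 18.6 and 13.6 CPM. The cells of this cluster had 0.23% mitochondrial UMIs in both libraries, and Malat1 was at 195 and 99 CPM there, against 2583 and 2298 CPM over all cells. It made up 7.90% and 5.69% of off cells at 4000 UMIs, and leaving it out gave 15.4% and 12.3% off cells. At 8000 UMIs it held 5 and 0 cells, 3 of the 5 being off, and without it 442 of 7082 cells labelled wild type were off.

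Cells of cluster 6 were often off, with 32.7% and 28.1% at 4000 UMIs against 16.5% and 12.9% of all cells, and 11.5% and 11.9% at 8000 UMIs against 6.28% and 3.26%. Rian was lower there than in clusters 0 to 3, at 89.3 CPM (76.3 to 104) and 87.7 CPM (75.4 to 102). In cluster 5 the off share at 8000 UMIs was 10.6% and 12.0%. The small cluster 9, of 17 and 21 cells and led by Habp2, Ttr and Spink1, had 284 CPM (215 to 369) and 227 CPM (168 to 300) of Meg3. Its off share was 62.5% and 52.4% at 4000 UMIs. Dlk1 had 10.2 CPM (1.23 to 36.7) and 9.25 CPM (1.12 to 33.4) in cluster 9, each from 2 UMIs, and was at or under 3.62 CPM in the other clusters.

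**Figure D5:**
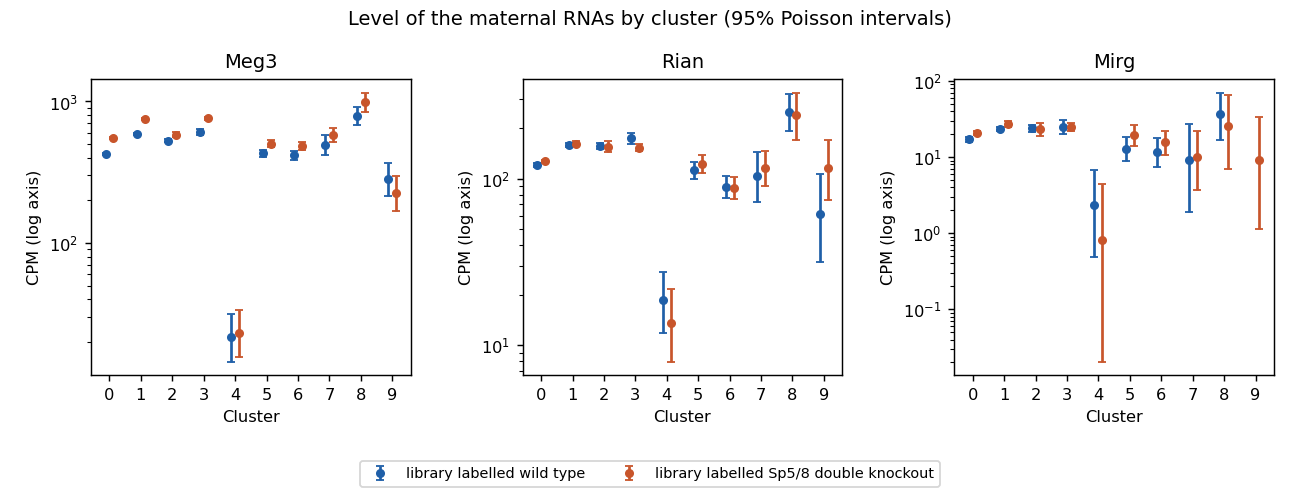
Level in CPM (log axis) of Meg3, Rian and Mirg by cluster (x axis), with 95% Poisson intervals; clusters with 0 UMIs are not drawn. Cluster 4 is lowest for Meg3 and Rian, with Meg3 at 21.7 and 23.2 CPM, and the library labelled double knockout (orange) lies above the library labelled wild type (blue) for Meg3 in clusters 0 to 3, 5 and 6.

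The higher Meg3 level of the library labelled double knockout was seen inside clusters as well. The log2 ratio was 0.37 (0.34 to 0.40) in cluster 0, 0.36 (0.33 to 0.39) in cluster 1, 0.14 (0.08 to 0.20) in cluster 2 and 0.32 (0.26 to 0.39) in cluster 3. It was 0.23 (0.11 to 0.35) in cluster 5 and 0.22 (0.08 to 0.36) in cluster 6. In cluster 4 the interval ran from -0.70 to 0.90. Rian had 0.08 (0.02 to 0.13) in cluster 0 and -0.18 (-0.32 to -0.05) in cluster 3, and its intervals included 0 in the other 5. Rian per 100 Meg3 UMIs was lower in the library labelled double knockout in clusters 0 (23.0 against 28.1), 1 (21.5 against 27.0), 2 (26.8 against 29.7) and 3 (20.2 against 28.6). The intervals overlapped in cluster 2 (24.6 to 29.1 and 28.4 to 31.1) and were apart in clusters 0, 1 and 3. They also overlapped in clusters 5 (24.4 against 26.2) and 6 (18.1 against 21.5). Mirg had a ratio of 0.27 (0.12 to 0.42) in cluster 0 and 0.21 (0.06 to 0.36) in cluster 1.

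Other imprinted genes show how the locus stood within its class. Of 13 maternally expressed imprinted genes outside the locus with at least 1 CPM, 12 had a log2 ratio under 0 and 1 above it, with a median log2 ratio of -0.39 against -0.03 for all genes. Meg3, also maternally expressed, lay on the other side. Past 1.5-fold, 4 were lower (0.879% of all genes were), Grb10 among them with 67.1 and 10.1 CPM and a ratio of -2.72, and 0 were higher (0.516%). Cdkn1c, a cell cycle inhibitor, had -1.61, Phlda2, a placental growth gene, -0.79, and Ascl2, a trophoblast factor, -1.09. Igf2r, the receptor that clears Igf2, had -0.39. Of 19 genes listed here as paternally expressed, 15 were higher and 4 lower, with a median of 0.22. H13 (-0.37), 1 of the 4, was placed by that list, and its parental copy was not examined. Past 1.5-fold, 2 were higher and 0 lower: Snrpn, a splicing protein (366 and 600 CPM, 0.71), and Zrsr1 (6.61 and 10.3 CPM, 0.64). Ascl2 and Zrsr1 lie under the level set for naming and were named after their values were seen. Kcnq1ot1, a long noncoding RNA from a paternal copy, had 0.30 (0.27 to 0.33), close to the Meg3 ratio.

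Genes that keep or write imprints were near the background. Of 23 such genes, 9 were higher and 14 lower, with a median of -0.07, beside 5354 higher and 7052 lower of all 12406 genes. None was 1.5-fold apart, as against 1.39% of all genes. Trim28, the partner of ZFP57, had 0.16 (0.14 to 0.18), Dnmt1, the maintenance methyltransferase, -0.10 (-0.14 to -0.06), and Dnmt3a, a de novo methyltransferase, -0.18 (-0.24 to -0.11). Between off and on cells at 4000 UMIs the median log2 ratios of 18 of them with at least 10 CPM were -0.09 and -0.07, with 16 and 13 lower in off cells, beside -0.03 for all genes in both libraries. As those medians lie under 0, lower ratios were also the commoner kind over all genes, and their share was not counted. At 8000 UMIs the medians were 0.01 and -0.01. Of the 15 Notch pathway genes, the receptors and ligands to which Dlk1 is related, 3 were higher and 12 lower, beside 7052 of 12406 lower among all genes. Their median was -0.13. Dll1, a ligand, and Hes5, a target, were over 1.5-fold lower (-1.28 and -1.04; 0.879% of all genes were that much lower), both under 10 CPM and named after their values were seen. The receptor Notch1 had -0.46 (-0.55 to -0.37) and the target Hes1 -0.07 (-0.10 to -0.04).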

How the data were processed

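Each genotype has 1 single-cell library, made with 10x 3′ chemistry. The tables deposited by the authors give UMI counts for every gene in every barcode, empty droplets included, with no normalization. Per the labels, Cell Ranger 8.0.1 was run with default parameters; the submitters' processing notes also name STARsolo, STAR 2.7.9a, Seurat 5.1.0 and mm10, with no role given. The deposited counts gave fewer genes per cell than the labels state, and the handling of strand is not given in the sources used here.

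Cells were called as stated above; doublets were kept, and removing 606 and 897 calls (0.8% per 1000 cells) was an alternative. Counts were summed per library as CPM, with a pseudocount of 0.5 in log2 ratios. Intervals are exact Poisson, exact conditional or Clopper-Pearson, at 95%, and cover counting error only. Limits for a count of 0 use 3 counts. Free RNA came from 885099 and 892271 barcodes with at most 100 UMIs. Clustering used 2000 variable genes without the members, 30 principal components, 15 neighbours and Leiden resolution 0.5 (leidenalg 0.10.2), with no batch correction. TMM factors came from edgeR 4.0.16. No test was made, since each group has 1 library. In all, 32158 of 32285 gene identifiers matched the annotation. RefSeq held promoter windows for Meg3, Rian, Mirg and Dlk1; no entry was used for Rtl1.

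The members, lists and rules were chosen with earlier results of these data known. Named were all 5 members, list and neighbour genes of at least 10 CPM, the 5 highest and lowest genes between off and on cells and the 5 most correlated genes, leaving out predicted genes except in the last. B830012L14Rik and Dio3, and genes that lead clusters, were named outside that rule, after their values were seen. The ratio scripts were tested on simulated data. Alternatives were other cell filters, depths, seeds, definitions of on cells, scaling and clusters.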

Additional observations from a re-analysis of the deposited data

Results flagged for a closer look

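Rian differed between the libraries in opposite directions in 2 clusters, with intervals that exclude 0 in each. The log2 ratio (double knockout over wild type as labelled) was 0.076 (0.019 to 0.13) in cluster 0 and -0.18 (-0.32 to -0.05) in cluster 3. The difference between the clusters was not tested.

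Off cells were low for chromosome 6 in opposite directions in the 2 libraries, at 8000 UMIs per cell. In the library labelled wild type 36.6% of off cells (32.1 to 41.3) and 19.5% of on cells (18.5 to 20.5) were low, a difference of 17.1 percentage points. The library labelled double knockout had 12.1% (7.97 to 17.3) and 18.6% (17.6 to 19.6), a difference of -6.50 points. At 4000 UMIs the library labelled wild type showed no such gap, with 24.2% (22.0 to 26.5) of off and 23.1% (22.0 to 24.3) of on cells low. The library labelled double knockout had 11.4% (9.72 to 13.2) and 20.3% (19.4 to 21.3). The difference between the libraries was not tested.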

How the results depend on the processing

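The Meg3 log2 ratio of 0.28 kept its sign under every alternative run: 0.31 with TMM scaling, 0.26 in cells not low for chromosome 6 or 11, and 0.37, 0.36, 0.14, 0.32, 0.10, 0.23 and 0.22 within clusters 0 to 6. The Rian ratio of -0.04 changed sign within clusters 0 (0.076), 1 (0.031) and 5 (0.13), and was -0.18 in cluster 3 and -0.44 in cluster 4. The Mirg ratio of 0.12 changed sign within clusters 2 (-0.035), 3 (-0.013) and 4 (-1.18, from 3 and 1 UMIs). With a background of 10 CPM, 40 genes were 1.5-fold apart in place of 173, as fewer genes were compared.

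Shares moved with depth, as counting fewer or more UMIs per cell must do. In the order 2500, 8000 UMIs and no thinning, Meg3 was in 61.6%, 90.9% and 88.6% of cells labelled wild type and 68.9%, 95.1% and 90.7% of those labelled double knockout. Off cells were 30.1%, 6.28% and 9.04%, and 24.7%, 3.26% and 7.07%, and at 15000 UMIs 2.43% and 0.448%. Rian in Meg3-positive cells was 31.9%, 64.8% and 74.1%, and 30.02%, 63.2% and 66.2%. By Meg3 alone 23.4% and 18.2% were off. Without cluster 4, an alternative chosen after seeing the data like the depth of 15000 UMIs, Meg3 was in 77.6% and off cells were 15.4% in the library labelled wild type.

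Genes higher in off cells in both libraries (4) became 0 at 2500 UMIs, 12 at 8000, 1 with another seed, 75 with genes of at least 1 CPM and 0 within cluster 0. Genes lower in both (1) became 8 at 2500 UMIs, 5 at 8000, 7 without thinning, 3 with another seed, 2 with on cells of 3 or more UMIs, 91 with genes of at least 1 CPM, 7 within cluster 0 and 28 within cluster 1. The cause was not tested. Among clusters 0 to 6, by thinned shares in place of CPM, Meg3 in the lowest cluster was 10.3% and 7.90% of that in the highest, against 3.56% and 3.05% by CPM. No paired analysis was possible because each group has 1 library. Depth limits the values too: Dlk1 and Rtl1 rest on 35 to 180 UMIs per library. Off cells can include cells left empty by sampling, at 8000 UMIs as well as at lower depths.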

Other observations

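Off cells were also compared with on cells at 8000 UMIs. Of 12 genes 1.5-fold or more higher in both libraries (0.158% of 7604), 3 are on the imprinted lists: Peg10 (log2 ratios of off over on of 1.02 and 1.15 in the libraries labelled wild type and double knockout), Cdkn1c (1.38 and 2.05) and Phlda2 (1.20 and 0.70). The others included Hspb1, a small heat shock protein (1.44 and 1.59), Krt8 (1.48 and 1.81), Krt18 (1.43 and 0.92), Col4a1 (0.90 and 1.89) and Sparc (0.84 and 2.32). These genes were named after their values were seen. The imprinted lists held 9 maternally and 12 paternally expressed genes of at least 10 CPM among the 7604. At this depth the median log2 ratios of the maternal list were 0.09 and 0.09, and those of the paternal list -0.05 and 0.11. For all 7604 genes the medians were 0.002 and 0.0009. B830012L14Rik, with -2.39 and -2.19, was the lowest of 5 genes that were 1.5-fold or more lower in both libraries (0.0658%).

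Part of this rests on very few cells. In cluster 6, at 4000 UMIs, the 54 off cells labelled wild type held 65 Krt8 UMIs in 8 cells, with 21 in 1 cell, and 40 Cdkn1c UMIs in 4 cells, with 22 in 1 cell. The 59 off cells labelled double knockout held 22 Krt8 UMIs, of which 19 were in 1 cell, and 14 Cdkn1c UMIs, of which 12 were in 1 cell. The 80 and 114 on cells of that cluster held 4 and 11 Krt8 UMIs, with at most 1 per cell. Clusters 0, 1, 2 and 5 were also compared at 4000 UMIs. There the off over on intervals of Krt8, Krt18, Hspb1, Sparc and Cdkn1c all included 0 in both libraries. Cdkn1c had -0.17 (-0.87 to 0.44) and -0.02 (-0.93 to 0.73) in cluster 0. In cluster 1 it had 0.49 (-0.20 to 1.09) and -0.27 (-2.81 to 1.18). Krt8 had -0.50 (-1.17 to 0.08) and 0.12 (-0.33 to 0.54) in cluster 0, and 0.17 (-0.56 to 0.79) and 0.31 (-0.58 to 1.03) in cluster 1.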
